A study of Saccharomyces cerevisiae with 4 samples.

Results

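Cytochrome c oxidase, complex IV of the mitochondrial respiratory chain, was followed through 32 nuclear genes of the budding yeast Saccharomyces cerevisiae on 4 arrays. The genes are defined by name and role, and were picked with earlier results of these data known: structural subunits other than subunit V, factors that make heme A or deliver copper, factors that assemble the enzyme and insert it into the membrane, and activators of the translation of its mitochondrial mRNAs. All 32 were found among the 5449 yeast genes that the array's annotation names, each by 1 probe set. All 32 gave a signal above background on all 4 arrays.

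The tested strain was NBRC1950, with 2 arrays, and it was set against X2180, a laboratory strain related to the reference strain S288C, also with 2 arrays. Cultures of both strains were shaken in YPD, which is rich and contains glucose, and the labels name no treatment, genotype, ploidy or growth phase. The series concerns ergosterol and tolerance of vanillin, and the comparison made here is the difference in poly(A) RNA between the untreated strains. The design text calls the duplicates independent, and p-values rest on the spread between the 2 arrays of each strain. Limma, the method used below, estimates that spread for each gene partly from the other tested probe sets (2 residual and 5.42 prior degrees of freedom).

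Complex IV takes electrons from cytochrome c, passes them to oxygen and pumps protons across the inner mitochondrial membrane. Its catalytic core, Cox1, Cox2 and Cox3, is encoded and translated inside the mitochondrion, and the surrounding subunits are encoded in the nucleus. Heme A and copper have to be placed into Cox1 and Cox2 by dedicated factors, and in yeast the translation of each core subunit depends on its own nuclear activators. Yeast growing on glucose ferments and represses many respiratory genes, of which those of complex IV are textbook examples.

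Signals are deposited intensities rescaled array by array to a common median of 973.6 over probe sets for S. cerevisiae genes, and a difference is the log2 signal of NBRC1950 minus that of X2180. A gene was called at a limma p under 0.05 after Benjamini-Hochberg adjustment over all tested probe sets. Of 5318 genes tested, 2508 (47.2%) were called, 1083 (20.4%) higher and 1425 (26.8%) lower in NBRC1950. The median gene differed by -0.05. Ribosomal RNA had 17 probe sets, none of them higher in NBRC1950, and their mean difference was -1.10 ± 0.32 (SD of the 17 values). For the control transcript SRB4, signal at the 3' end over that at the 5' end had a log2 value of 2.66 and 2.83 in NBRC1950, against 2.05 and 2.18 in X2180. For ACT1, SPT15 and WBP1 this ratio lay between 0.31 and 1.10 in NBRC1950 and between 0.20 and 1.18 in X2180. For RIP1 it was 0.29 and 0.25 in NBRC1950, against 0.51 and 0.30 in X2180, the opposite order to SRB4. Of 14 haploid-specific and mating-type genes, 9 were bright enough to test and 6 of these were lower in NBRC1950, RME1, a regulator of meiosis, by -1.87 and STE4, which encodes a subunit of the pheromone G protein, by -0.72. Scaled on the whole set of probe sets of each array, background included (whole-array scaling), 3 of the 9 were called higher and 2 lower, without rescaling 0 and 2, and with quantile normalization 2 and 2. STE4 lost its call with whole-array scaling (-0.18, adjusted p = 0.270) and without rescaling (0.0756). The part of RNA quality, culture state and mating type in the results below was not tested.

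Of the 32 members, 14 (43.8%) rose, against 20.4% of all tested genes, 2 (6.25%) fell, against 26.8%, and 16 did not pass the test. The median member differed by 0.29, against -0.05 for all tested genes, and the members ranged from -0.83 for PET54 to 1.18 for COX20. Both NBRC1950 arrays lay above both X2180 arrays for 22 members, against 33.3% of all tested genes, and below them for 5, against 42.3%. In the other 5 members, COX10, COX18, COX23, SCO2 and PET494, the strains overlapped. The median difference was 0.57 for the 7 structural subunits and 0.23 for the 25 other members, and the difference between these medians was not tested.

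**Figure D1:**
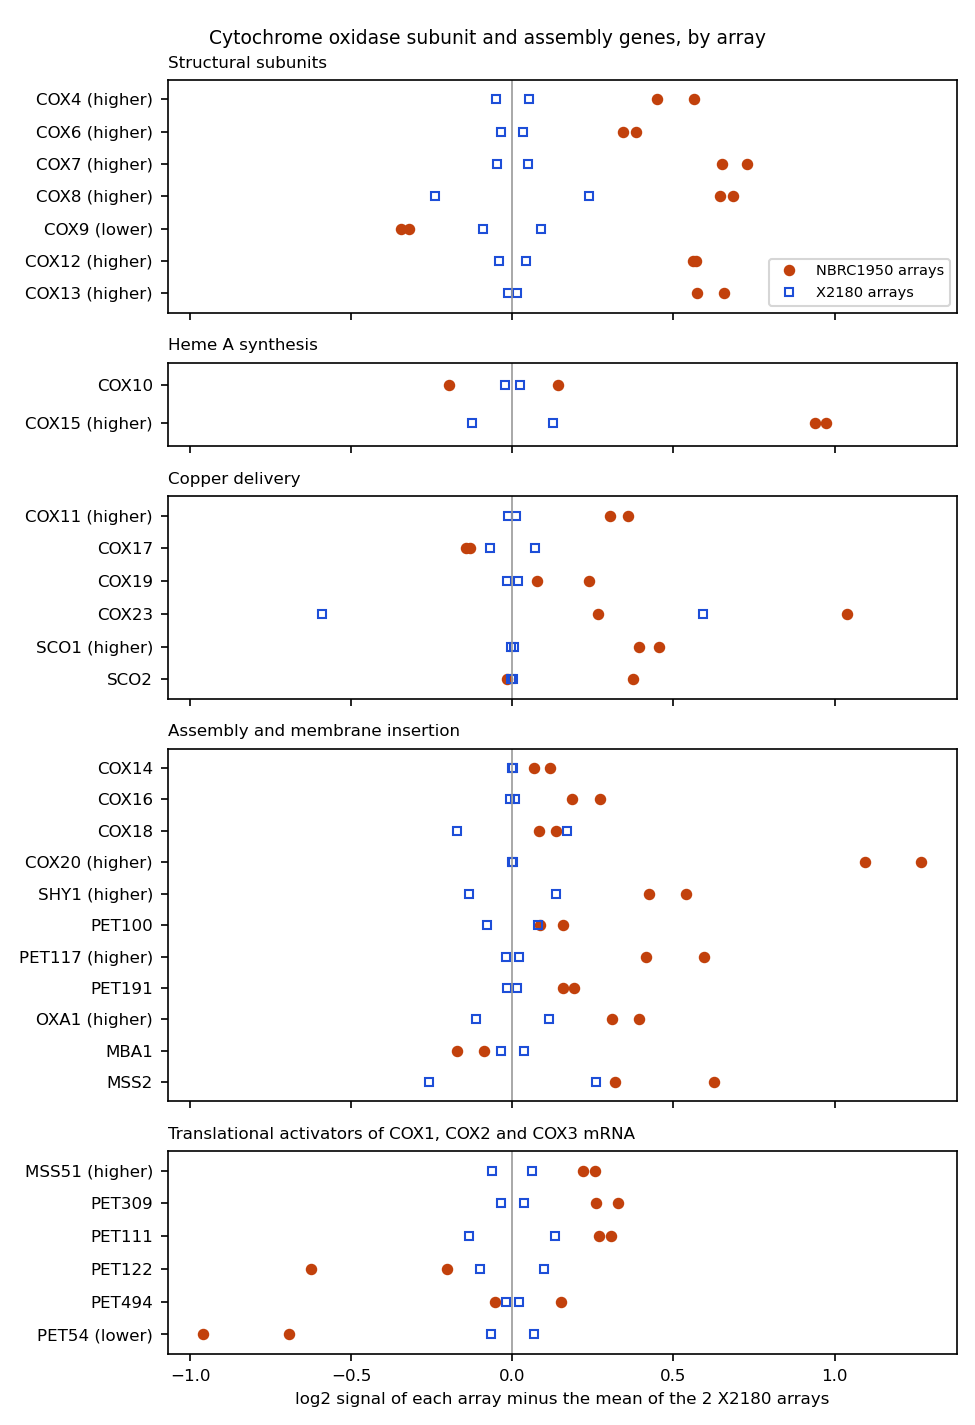
Signal of each of the 32 members on each array, as log2 minus the mean of the 2 X2180 arrays, grouped by role; filled circles are the NBRC1950 arrays, open squares the X2180 arrays, and "higher" or "lower" after a name marks a gene called by limma. Among the 7 structural subunits 6 lie to the right of the X2180 arrays and COX9 lies to the left; COX20 has the largest difference, 1.18, and PET54 the lowest, -0.83.

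The nuclear structural subunits were called without exception, 6 of 7 higher in NBRC1950 (85.7%, against 20.4% of all tested genes) and 1 lower (14.3%, against 26.8%). These proteins surround the core and are needed to build or tune it. COX7, which encodes subunit VII, had signals of 4888 and 5155 in NBRC1950, against 3011 and 3216 in X2180. It rose by 0.69 ± 0.07 (SE; limma adjusted p = 0.000202), a 1.61-fold difference. COX8, for subunit VIII, had 5752 and 5586 in NBRC1950 and 3029.8 and 4218 in X2180. Its X2180 arrays were the farther apart, and the difference of 0.67 had an SE of 0.14 and stood at 0.43 (adjusted p = 0.00535) without X2180 replicate 1. COX13, for subunit VIa, had 4306 and 4566 in NBRC1950, against 2925 and 2866 in X2180, a difference of 0.61. COX12, for subunit VIb, which faces the intermembrane space, had 6995 and 6956 in NBRC1950, against 4581.5 and 4851 in X2180, a difference of 0.57. COX4, for the zinc-binding subunit IV, had 6043 and 5577 in NBRC1950 and 3945 and 4231 in X2180, and was higher by 0.51. COX6, for subunit VI, had 5850.3 and 5685 in NBRC1950 and 4587 and 4376 in X2180, and was higher by 0.36. The 6 subunits thus lay within a narrow band of 0.36 to 0.69, with adjusted p-values of 0.000202 to 0.00632 in limma. For each of them both NBRC1950 arrays lay above both X2180 arrays, as they did for 33.3% of all tested genes.

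COX9, for the small subunit VIIa, went the other way. Its signals were 3397 and 3459 in NBRC1950, against 4056 and 4597 in X2180. It fell by 0.33 ± 0.08 (SE; limma adjusted p = 0.01), so that the NBRC1950 signal was 0.794 times that of X2180. The direction of COX9 depended on the scaling. With whole-array scaling COX9 stood at 0.21 (adjusted p = 0.0674), and without rescaling at -0.12 (0.722).

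Of the 2 enzymes of heme A synthesis, 1 rose. COX15, which hydroxylates heme O to heme A, had signals of 3893 and 3802 in NBRC1950, against 2163 and 1819 in X2180, and rose 1.94-fold, by 0.96 ± 0.09 (SE; limma adjusted p = 0.000149). In 2.86% of the tested genes the difference was more positive. COX10, the farnesyltransferase that makes heme O from heme B, had 409 and 517 in NBRC1950, on either side of the 461 and 476 in X2180. Its difference was -0.03, with a 95% interval of -0.32 to 0.26, and it was 0.14 without NBRC1950 replicate 1.

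In copper delivery 2 of 6 genes rose (33.3%, against 20.4% of all tested genes) and the other 4 did not pass. Cox17 carries copper in the intermembrane space to Sco1 and Cox11, which load the copper sites of Cox2 and Cox1. SCO1 had signals of 742 and 775 in NBRC1950, against 563 and 567 in X2180, and rose by 0.42 ± 0.08 (SE; limma adjusted p = 0.00408). COX11 had 1049.8 and 1089.8 in NBRC1950, against 843 and 858 in X2180, and rose by 0.33 (adjusted p = 0.00807). The call of COX11 was lost without NBRC1950 replicate 2 (0.0604). COX17 had 1927 and 1944 in NBRC1950 and 2235 and 2029 in X2180, so its NBRC1950 arrays were the lower, but the difference of -0.14 did not pass and was 0.41 with whole-array scaling and 0.071 without rescaling. SCO2, the paralogue of SCO1 that is dispensable for respiration, had 687 and 901 in NBRC1950 and 693 and 696 in X2180. The NBRC1950 arrays differed from each other, and SCO2 stood at 0.38 (adjusted p = 0.0298) without NBRC1950 replicate 1 and at -0.015 without NBRC1950 replicate 2.

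COX19 and COX23 encode small cysteine-rich proteins of the same compartment. COX19 had 485 and 543 in NBRC1950 and 455 and 466 in X2180, a difference of 0.16 that did not pass (95% interval -0.07 to 0.38). COX23 was the least reproducible member. It had 415 and 709 in NBRC1950 and 229 and 520.04 in X2180, so the strains overlapped and replicate 2 was the higher array in each. Its difference of 0.65 had a 95% interval of -0.23 to 1.53. COX23 was 1.04 without NBRC1950 replicate 1 and 1.24 without X2180 replicate 2. Its lowest value over the 13 alternative limma fits described below was 0.061.

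Of 11 assembly and insertion factors 4 rose (36.4%, against 20.4% of all tested genes) and the other 7 did not pass. COX20 encodes the chaperone that holds newly made Cox2 for cleavage of its presequence. It had 1376 and 1553 in NBRC1950, against 645 and 644 in X2180, and rose 2.27-fold, by 1.18 ± 0.08 (SE; limma adjusted p = 3.87e-05), the largest difference of the 32 members. The difference was more positive in 2.01% of the tested genes. PET117 had 362 and 320.2 in NBRC1950, against 237 and 243 in X2180, and rose by 0.50. SHY1, the yeast counterpart of human SURF1, which acts in the assembly of Cox1, had 500.07 and 541 in NBRC1950, against 339 and 409 in X2180, and rose by 0.48. OXA1, the insertase that puts mitochondrial translation products into the inner membrane, had 1252 and 1327 in NBRC1950, against 933 and 1093 in X2180, and rose by 0.35. Each of these 3 calls was lost in at least 1 fit that left out an array. PET117 stood at 0.41 without NBRC1950 replicate 1 (adjusted p = 0.0733). SHY1 stood at 0.43 without NBRC1950 replicate 2 (0.0603) and at 0.35 without X2180 replicate 1 (0.0514), and OXA1 at 0.31 (0.0740) and 0.24 (0.0658) without the same arrays.

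Cox18 exports the C-terminal tail of Cox2 through the membrane, and Mss2 takes part in the same step. MSS2 had 495 and 400.3 in NBRC1950 and 268 and 384 in X2180, and its difference of 0.47 did not pass (adjusted p = 0.0676). MSS2 stood at 0.62 without NBRC1950 replicate 2 and at 0.73 without X2180 replicate 2. Its lowest value over the 13 alternative limma fits was 0.21. COX18 had 612 and 636 in NBRC1950 and 514 and 652 in X2180, an overlap, with a difference of 0.11 that was -0.062 without X2180 replicate 1. The Cox2 factors thus had values of 1.18, 0.47 and 0.11, of which the first alone passed.

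The other assembly factors that did not pass had differences between -0.13 and 0.23. COX16, which takes part in joining the Cox1 and Cox2 modules, was at 0.23 with a 95% interval of 0.03 to 0.43. PET191, another cysteine-rich assembly protein, was at 0.18, PET100, which binds a subcomplex of the Cox7, Cox8 and Cox9 proteins, at 0.12, and COX14, which binds newly made Cox1, at 0.09. For all 4 both NBRC1950 arrays were above both X2180 arrays, as they were for 33.3% of all tested genes. MBA1, a receptor for mitochondrial ribosomes at the membrane, had 1117 and 1184 in NBRC1950, against 1289.9 and 1229 in X2180. At -0.13 it did not pass, and it was positive with whole-array scaling (0.41) or without rescaling (0.078).

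Of the 6 activators of mitochondrial translation 1 rose (16.7%, against 20.4% of all tested genes), 1 fell (16.7%, against 26.8%) and 4 did not pass. MSS51, which activates translation of COX1 mRNA and binds the new Cox1 protein, had 1619 and 1578 in NBRC1950, against 1415 and 1299 in X2180. It rose by 0.24 (limma adjusted p = 0.0317), and that call was lost without either NBRC1950 array (0.144 without replicate 1, 0.0909 without replicate 2) and without X2180 replicate 2 (0.103). MSS51 also missed the threshold without rescaling (0.0907) and without the intensity trend in eBayes (0.0625). PET309, the other activator of COX1 mRNA, had 247 and 259 in NBRC1950 and 212 and 201 in X2180, a difference of 0.29 that did not pass (adjusted p = 0.0675). It passed with whole-array scaling (0.84), with quantile normalization (0.0356, at 0.36) and without the intensity trend (0.0297). PET111, which acts on COX2 mRNA, had 507 and 494 in NBRC1950 and 449 and 373 in X2180. PET111 was also at 0.29 (limma adjusted p = 0.0693), and stood at 0.42 without X2180 replicate 1. Its lowest value over the 13 alternative limma fits was 0.15.

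The 3 activators of COX3 mRNA work as a complex, and 1 of them fell. PET54, which also takes part in splicing of COX1 RNA, had 1150.2 and 958 in NBRC1950, against 1779 and 1948 in X2180. It fell by 0.83 ± 0.10 (SE; limma adjusted p = 0.000533), so that the X2180 signal was 1.77 times that of NBRC1950. PET122 had 143 and 191 in NBRC1950, against 236 and 205 in X2180. Its arrays did not overlap, but the difference of -0.41 did not pass (adjusted p = 0.0808). It passed as lower without NBRC1950 replicate 2 (0.0254, at -0.62), and stood at 0.13 with whole-array scaling. PET494 had 496 and 429.8 in NBRC1950 and 440.2 and 453 in X2180, an overlap, with a difference of 0.05. Without NBRC1950 replicate 1 PET494 was at -0.054. Of the 32 members only PET54 was called lower under all of the scalings tried.

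Some members are neighbours on a chromosome. In the R64 gene order OXA1 and PET122 are adjacent on chromosome V, and their locus tags, YER154W and YER153C, place them on opposite strands, pointing away from each other. OXA1 was at 0.35 and PET122 at -0.41. COX7 and PET111 are adjacent on chromosome XIII on the same strand, as YMR256C and YMR257C. COX7 was at 0.69 and PET111 at 0.29.

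Among the scalings, whole-array scaling changed the number of members called higher the most. With whole-array scaling the median gene moved to 0.50, 92.5% of all called genes were higher in NBRC1950 and 29 members were called higher and 1 lower. Without rescaling the median gene moved to 0.16, 70.7% of the called genes were higher and 15 members were called higher and 1 lower. Quantile normalization gave a median gene of 0.02, 52.0% higher among the called genes, and 15 members higher and 2 lower. With the main scaling 43.2% of called genes were higher. Relative to the median of all tested genes, the median member lay at 0.34 with the main scaling, 0.34 with whole-array scaling, 0.34 without rescaling and 0.29 with quantile normalization. Main scaling, whole-array scaling and no rescaling differ by 1 factor per array, which moves all genes above the floor alike. Their equal values were thus fixed in advance, and quantile normalization alone could differ. Of the 14 higher members, 9 were called higher under all 13 limma alternatives: COX4, COX6, COX7, COX8, COX12, COX13, COX15, SCO1 and COX20. Several of the 13 could hardly remove such a call: floor, filter and probe-set settings, and the scalings that move all genes upward in NBRC1950. A t-test with Benjamini-Hochberg adjustment, not among the 13, called 0 members higher and 0 lower.

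**Figure D2:**
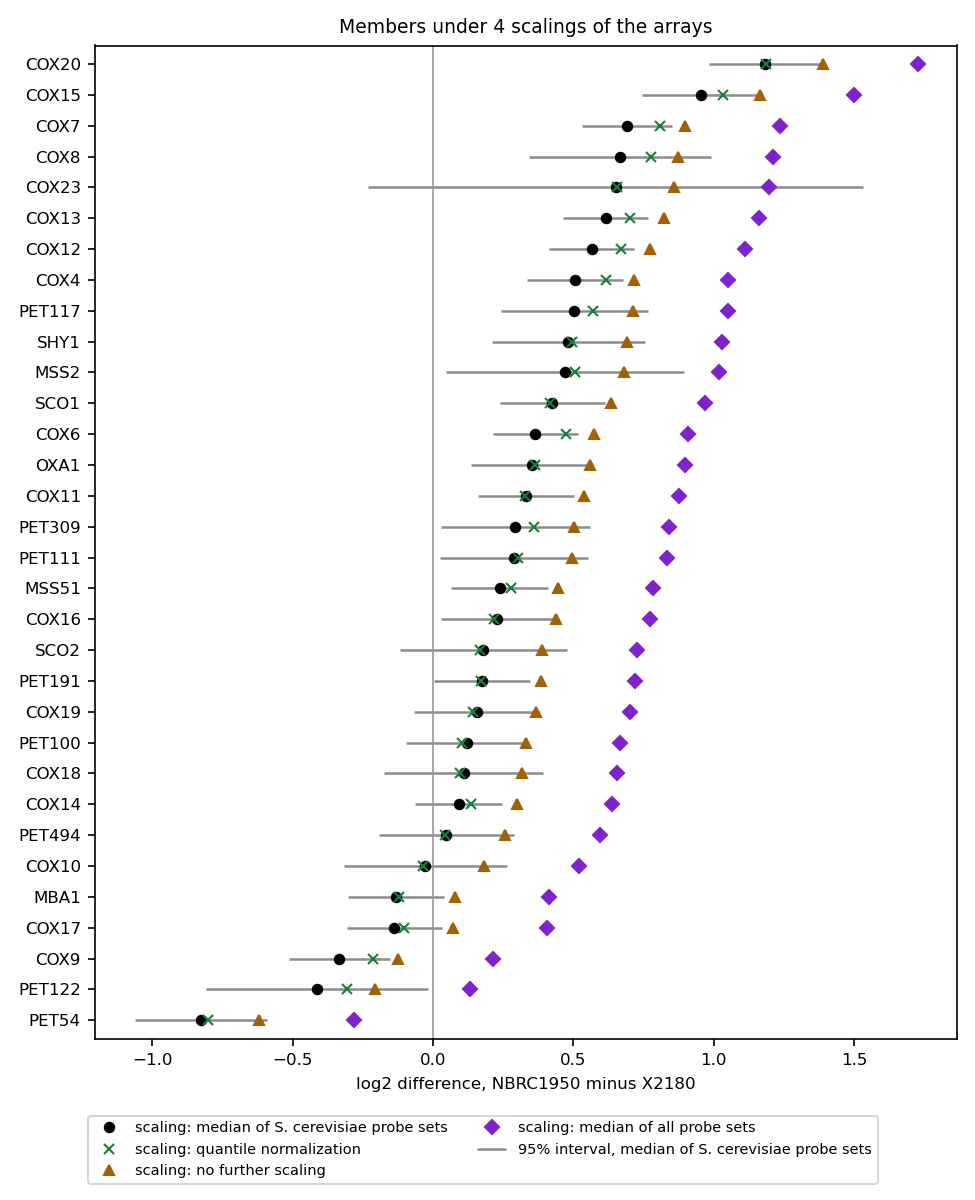
Log2 difference of each member, NBRC1950 minus X2180, under 4 scalings of the arrays (symbols), sorted by the main value; grey bars are 95% intervals of the main limma fit. Whole-array scaling shifts members to the right, the median member to 0.84 against 0.29, and COX9, COX10, COX17, MBA1 and PET122 cross 0, while PET54 stays below 0 under all 4.

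A further list held 23 genes of complex IV and its assembly, 22 of them measured, at a median of 0.09. In it 8 genes rose and 8 fell (36.4% each, against 20.4% and 26.8% of all tested genes). These counts depended on the scaling: 16 were called higher and 3 lower with whole-array scaling (median 0.64), 6 and 4 without rescaling (0.30), and 7 and 8 with quantile normalization (0.12). The alternative forms of subunit V stood on opposite sides. COX5A, the form used with oxygen, had 5550.4 and 5809 in NBRC1950, against 3612 and 3438 in X2180, and rose by 0.69, which is within the band of the 6 higher subunits. COX5B, the form used at low oxygen, had 156 and 147 in NBRC1950, against 474 and 554 in X2180, and fell by 1.76 on the log2 scale. CYC1, the main form of cytochrome c, the electron donor of the enzyme, had 6194 and 6013 in NBRC1950, against 2562 and 2389.96 in X2180. It rose 2.47-fold, and CYC7, its minor form, rose by 0.73. The COX1, COX2 and COX3 genes of the mitochondrial genome were not analysed here.

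Some partners of COX20 and COX15, the 2 members with the highest differences, were called lower with the main scaling, and of those named here IMP1 was called lower under all 4 scalings. The presequence of Cox2, which Cox20 presents, is cut by the inner membrane peptidase. IMP1, its catalytic subunit for Cox2, had 637 and 744 in NBRC1950, against 1905 and 1836 in X2180, and fell by 1.44 ± 0.09 (SE; limma adjusted p = 2.17e-05). IMP2, the other catalytic subunit, had 761 and 782 in NBRC1950, against 1289.8 and 1265 in X2180, and fell by 0.73, although the call was lost with whole-array scaling (-0.18, adjusted p = 0.145). SOM1, a further component of the peptidase, was at 0.19 and did not pass (adjusted p = 0.145). Cox15 is thought to receive electrons from the ferredoxin Yah1 and its reductase Arh1, which also serve iron-sulfur cluster synthesis. YAH1 had 968 and 999 in NBRC1950, against 1539.6 and 1399 in X2180, and fell by 0.58, with no call under whole-array scaling (-0.03) or without rescaling (-0.37). ARH1 had 619.7 and 608 in NBRC1950, against 755 and 777 in X2180, and fell by 0.32. ARH1 was at 0.23 with whole-array scaling and lost its call without NBRC1950 replicate 1 (0.0539) or replicate 2 (0.0757).

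The remaining called genes of that list were smaller assembly factors. CMC1, a copper-binding protein of the intermembrane space, rose by 0.65, and COA1, which acts with Shy1 on Cox1, by 0.46. COA2, another Cox1 assembly factor, rose by 0.33, RCF1, a factor of respiratory supercomplexes, by 0.29 and MRS1, which helps splice COX1 RNA, by 0.26. CMC4, a further cysteine-rich protein, fell by 0.85. COA3, which acts with Cox14 and Mss51 on Cox1 translation, fell by 0.28 and RCF2, also of the supercomplexes, by 0.26, although with whole-array scaling COA3 was at 0.27 and RCF2 at 0.29. The calls of COA2 and COA3 were lost without NBRC1950 replicate 1 (0.0634 and 0.107) or X2180 replicate 1 (0.0539 and 0.0513), and that of RCF2 without NBRC1950 replicate 1 (0.127). MRS1 and RCF1 lost theirs without either NBRC1950 array (0.0894 and 0.0862 without replicate 1, 0.108 and 0.139 without replicate 2) and without X2180 replicate 1 (0.0741 and 0.162, with RCF1 at 0.15). RCF1 was near the threshold with all arrays (0.0481). Of the called genes of this list, CYC1, IMP1, COX5B, COX5A, IMP2 and CMC4 follow the rule for named genes, and the others were added after their values were seen.

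**Figure D3:**
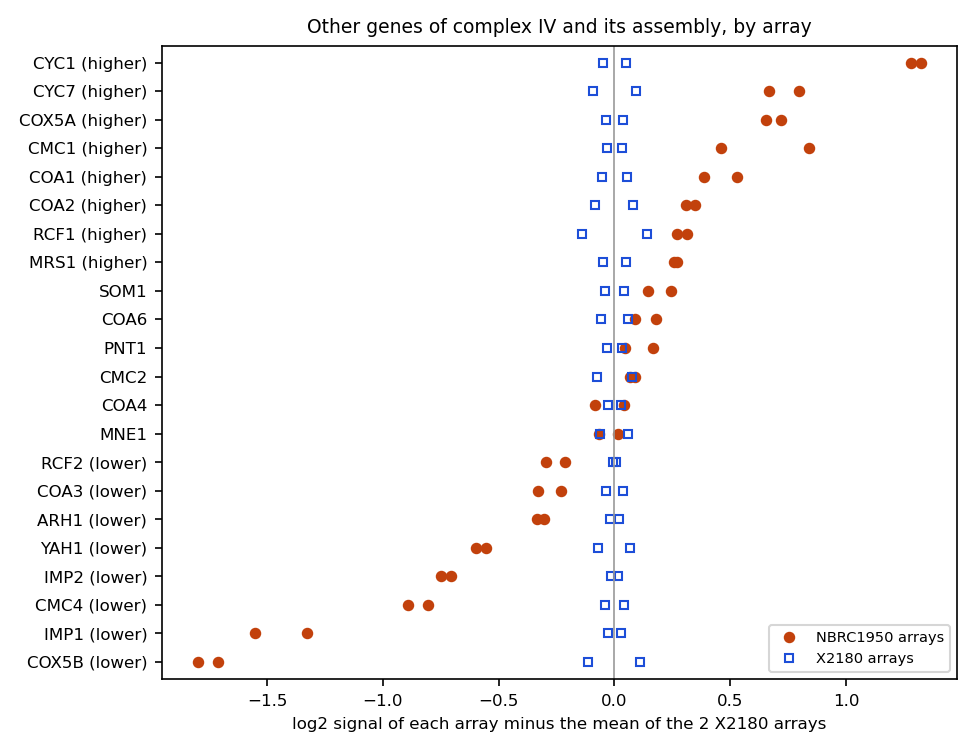
Signal of 22 further genes of complex IV, its assembly and its electron donor on each array, as log2 minus the mean of the 2 X2180 arrays; filled circles are NBRC1950 arrays, open squares X2180 arrays, and called genes carry "higher" or "lower". CYC1 lies highest, at 1.30, and COX5B lowest, at -1.76, with 8 genes called on each side.

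Neighbouring complexes of the chain gave these values in the same fit, in which 20.4% of all tested genes rose and 26.8% fell. Of the 9 nuclear subunits of complex III 7 rose, with a median of 0.85, against 0.57 for the 7 nuclear subunits of complex IV counted here. RIP1, the Rieske protein, rose by 1.57, QCR10 by 0.94 and QCR6 by 0.86. Of the 10 assembly and expression factors of complex III 6 rose and 1 fell, with a median of 0.31. CBP6, an activator of cytochrome b translation, rose by 0.85. Of the 16 subunits and inhibitors of the ATP synthase 7 rose and 1, ATP7, fell, with a median of 0.16. With whole-array scaling 16 were called higher and 0 lower (median 0.71), without rescaling 5 and 0, and with quantile normalization 11 and 0 (median 0.28). INH1, the inhibitor of its ATPase activity, rose by 1.37, ATP19 by 0.53 and ATP20 by 0.50. Of its 13 assembly and expression factors 4 rose (30.8%), with a median of 0.15, NCA3 by 1.63. With whole-array scaling 9 genes were called higher in each of the complex III lists and 0 lower, and 11 of the 13 factors of the ATP synthase were called higher. Most of all tested genes, 3968, were also called higher with that scaling and 321 lower, at a median of 0.50. The counts with whole-array scaling therefore do not set these lists apart from other genes. The differences between these lists and the members were not tested.

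**Figure D4:**
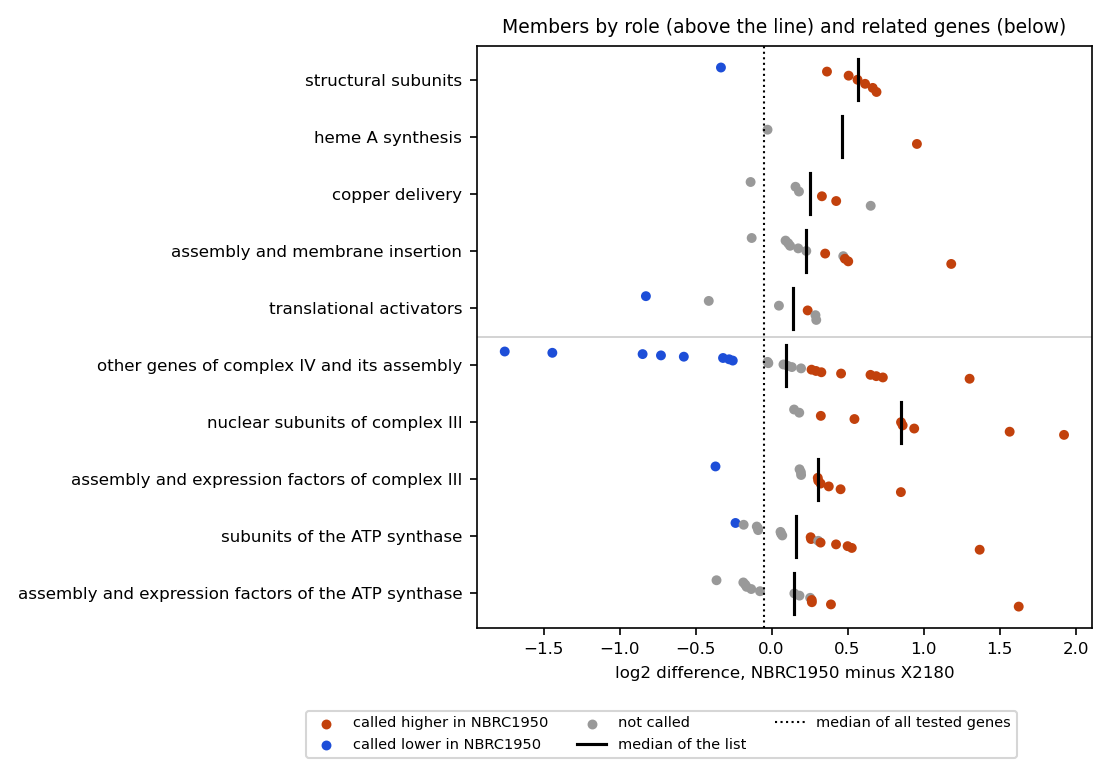
Log2 difference, NBRC1950 minus X2180, of each member by role (above the grey line) and of related genes (below it); colours mark limma calls, vertical bars the median of each list and the dotted line the median of all tested genes, -0.05. The list medians of the members run between 0.14 for the translational activators and 0.57 for the structural subunits.

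Of 7 regulators of respiratory genes 2 rose, 1 fell and 4 did not pass, a share of calls near that of all tested genes (47.2%). The Hap2/3/4/5 complex activates many genes of complex IV, and Hap4 is its glucose-repressed subunit. HAP4 had 1264 and 1332 in NBRC1950, against 765 and 696 in X2180, and rose by 0.83 ± 0.08 (SE; limma adjusted p = 0.000191). ROX1, a repressor of hypoxic genes, had 1551 and 1338 in NBRC1950, against 778 and 677 in X2180, and rose by 0.99. HAP1, a heme-responsive activator of respiratory genes, had 383 and 380.2 in NBRC1950, against 800.2 and 786 in X2180, and fell by 1.06. The arrays measure RNA and not the activity of these regulators, and their part in the values above was not tested. With whole-array scaling 6 regulators were called higher and 1 lower, beside 3968 higher and 321 lower among all tested genes. HAP4 and respiratory genes are known to change as glucose is used up, and since the labels give no growth phase, strain and culture state at harvest cannot be told apart.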

How the data were processed

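Poly(A) RNA of 2 NBRC1950 and 2 X2180 samples was measured on Affymetrix Yeast Genome 2.0 arrays. The deposited values are 1 linear intensity per probe set and array. GCOS is named by the submitters' processing notes, while its version and scaling are not given in the sources used here. Neither the per-chip nor the per-gene division in the design text was visible in the deposited intensity values.

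The array's annotation, matched by gene identifier to the R64 gene table, gave 1 S. cerevisiae gene for 5498 of 10928 probe sets, and 5216 probe sets that named no such gene and were no controls served as background. Intensities were scaled to the median of the S. cerevisiae probe sets, floored at the background median (4.566) and converted to log2. Probe sets were tested where their mean log2 value exceeded that of 16.23, the 90th background percentile, which left 5360. Differences between strains were fitted without covariates in R 4.3.3, using lmFit and eBayes (intensity trend) of limma 3.58.1, with 2 residual and 5.42 prior degrees of freedom. A gene with more than 1 probe set was represented by the brightest.

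Before scaling, the array medians of the S. cerevisiae probe sets were 983 and 1171 in NBRC1950 and 894 and 964 in X2180. The number of arrays limits the precision. Probes mismatched to NBRC1950 were not masked, so sequence and transcript level cannot be told apart. Signals of different genes are not compared, since probe sets differ in response.

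The members and the gene lists were chosen with earlier results of these data known. All members are named, and of other lists up to 6 (complex IV) or 3 genes with the smallest adjusted p, with exceptions stated. Promoter and protein sequences were not analysed here.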

Additional observations from a re-analysis of the deposited data

How the results depend on the processing

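With whole-array scaling, 3968 of all tested genes were called higher and 321 lower, 29 members were called higher and 1 lower, and the median member was at 0.84. The differences of COX9 (0.21), COX10 (0.52), COX17 (0.41), MBA1 (0.41), PET122 (0.13), COA3 (0.27), RCF2 (0.29) and ARH1 (0.23) changed sign. Without rescaling, 383 genes and 1 member were called lower, the median member was at 0.50, and COX10 (0.18), COX17 (0.071) and MBA1 (0.078) changed sign. Whole-array scaling and no rescaling differ from the main scaling by 1 factor per array. They shift the differences of all genes above the floor by the same amount, so genes with small negative differences changed sign. Why the scalings differ by this amount was not tested. With 1 array left out, where the lone array of a strain is assumed to vary like the others, 11 to 15 members were called higher and 2 to 3 lower, at a median of 0.23 to 0.32, and 741 to 1039 of all tested genes were called higher and 1038 to 1384 lower. COX10 took values of -0.20 to 0.14, PET494 -0.054 to 0.15, SCO2 -0.015 to 0.38 and COX18 -0.062 to 0.28. The methods' t-test at an unadjusted p under 0.05 called 13 members higher and 1 lower, and 885 of all tested genes higher and 1186 lower. After Benjamini-Hochberg adjustment it called 0 members in either direction, and 218 of all tested genes higher and 309 lower. Floor, filter and the handling of several probe sets changed no member's call. They could hardly do so, as each member has 1 probe set and signals far above floor and filter. These settings are among the 13 limma alternatives. Whole-array scaling and no rescaling, also among the 13, move all genes above the floor upward in NBRC1950. Without the intensity trend 14 members were called higher and 2 lower, with MSS51 losing its call and PET309 gaining one. Of all tested genes 978 were then called higher and 1282 lower.

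Same-numbered arrays were not taken as pairs: across all tested genes, which are not independent, the differences between replicates 1 and 2 of the strains correlated at 0.06, and across the 32 members at 0.32. With the replicate block, 17 members were called higher and 2 lower, COX23, MSS2 and PET111 being added. Of all tested genes 1159 were then called higher and 1512 lower.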
